A study of Homo sapiens and Mus musculus with 21 samples.

Results

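The genes described here are 6 transcription factors of the epithelial-mesenchymal transition (SNAI1, SNAI2, TWIST1, TWIST2, ZEB1 and ZEB2), the cadherins CDH1, CDH2 and CDH11, and the intermediate filament gene VIM. They were taken by symbol from the deposited tables, 10 of 60674 genes in each human table and, as title-case symbols, 10 of 41214 genes in the mouse table. The rule read no measured value, but the genes were chosen with earlier results of these data known. Mesothelioma, a tumour of the pleural lining, was studied in 21 RNA-seq libraries. The mouse cells were BNC (Bap1-/-;Nf2-/-;Cdkn2ab-/-, replicates 4 to 6) and NC (Nf2-/-;Cdkn2ab-/-, replicates 4 and 5). By these labels, loss of Nf2 and Cdkn2ab was shared by both groups. In the drug table, H2731 (labelled Bap1 mutated) and H2810 (labelled Bap1 wildtype) each received GSK126, an inhibitor of the histone methyltransferase EZH2, or DMSO, its vehicle. In the knockdown table, MSTO-211H and H2810 each carried a BAP1 shRNA (shBAP1 below) or a Random shRNA. Every human group held 2 libraries, and H2810, H2731 and MSTO-211H are established human mesothelioma lines. Each line is a single tumour, so a difference between lines cannot be assigned to BAP1.

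In the epithelial-mesenchymal transition, epithelial cells give up their junctions and gain the shape and motility of mesenchymal cells. SNAI and ZEB proteins are zinc-finger repressors that bind E-box DNA elements, among them those of CDH1, which encodes E-cadherin of epithelial junctions, and TWIST proteins are basic helix-loop-helix factors that act on the same targets. CDH2 (N-cadherin) and CDH11 (cadherin-11, first described in osteoblasts) join mesenchymal cells, and VIM encodes vimentin, their main intermediate filament. Mesothelium is of mesodermal origin and has keratins and vimentin together, and mesotheliomas range from epithelioid to sarcomatoid forms. BAP1 is a nuclear enzyme that removes ubiquitin from a histone, and EZH2 is the catalytic subunit of the Polycomb complex PRC2, which places a repressive methyl mark.

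Libraries held between 13693927 and 23217215 counts. BAP1 itself was at 15.4 and 17.7 CPM (counts scaled to the TMM-adjusted library size) in MSTO-211H with shBAP1, against 100.1 and 103 CPM with the Random shRNA, and at 13.4 and 20.3 CPM in H2810 with shBAP1, against 115 and 117 CPM. In the mouse, Bap1 was at 30.5, 33.3 and 44.1 CPM in BNC libraries, against 60.2 and 62.0 CPM in NC libraries, a difference that did not pass the test (adjusted p = 0.620). Nf2 RNA was present in both groups, at 181, 177 and 82.6 CPM in BNC and 117 and 121 CPM in NC. Cdkn2a had 0, 2 and 5 counts in BNC and 0 and 6 in NC. The labels do not describe how any of these alleles was disrupted. Of 12 mesothelial markers, 9 to 11 had counts in each human group. WT1, the mesothelial transcription factor, averaged 4.30 CPM in H2731 with DMSO and 22.8 CPM in H2810 with DMSO, while UPK3B, a membrane protein of mesothelium, averaged 347 CPM in H2731 with DMSO and 0.0529 CPM in H2810 with DMSO. One mouse library stood apart. BNC replicate 6 differed from the other 4 mouse libraries by a chi-square per degree of freedom of 229 to 331 over genes, and its sum of mesothelial markers was 149 CPM, against 637 to 1941 CPM in NC libraries. Most of that sum was Wt1, at 130 CPM, which was above both NC libraries (8.54 and 109 CPM). Hp was also above them, at 16.2 CPM, against 0.0505 and 0.0724 CPM. Msln was far below them, at 0.351 CPM, against 519 and 880 CPM. BNC replicates 4 and 5 differed from each other by only 15.0 on the same measure, against 101 to 331 for the other mouse pairs. Each was counted as a library, but the labels do not say whether the 2 share a line or an animal. If they do, the BNC group holds fewer independent units than libraries. No label ties replicates to separate cultures or animals, so p-values measure the spread between these libraries, which may be technical.

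Calls were made in edgeR's quasi-likelihood test where the p-value, adjusted over the whole table by the Benjamini-Hochberg method, was under 0.05. Whether groups overlapped is given below for single genes as a description. The share of all tested genes whose groups stood apart was not counted in any table, so nothing is concluded from it. CDH1 was too low to be tested in any table, so 9 of the 10 genes were tested in each comparison. With shBAP1 against the Random shRNA, 7 were called in MSTO-211H (2 higher, 5 lower), where 46.2% of all tested genes were called, and 8 in H2810 (3 higher, 5 lower), where 45.8% were. One of the 2 higher in MSTO-211H was CDH11, with 22 counts in all against 8, which entered the test only through its level in H2810. With GSK126 against DMSO, 5 were called in H2731 (5 higher, 0 lower), where 24.7% of all tested genes were, and 5 in H2810 (2 higher, 3 lower), where 29.3% were. Their median log2 fold change was -0.27 in MSTO-211H and -0.32 in H2810 with shBAP1, and 0.20 in H2731 and 0.05 in H2810 with GSK126, against a median over all tested genes between -0.03 and 0.00. The response to shBAP1 differed between the lines for 6 of the 9 genes (27.7% of all tested genes), and the response to GSK126 differed for 6 of the 9 (14.7%). The lines themselves differed at 8 of 9 genes in both tables, of which 7 were lower and 1 was higher than in H2810, but 79.7% of all genes differed between MSTO-211H and H2810 and 82.2% between H2731 and H2810. CDH11 was among the 7 lower in MSTO-211H and entered that test only through its level in H2810. In the mouse, 0 of the 9 were called, as were 0.00% of all genes. Called genes thus lay in both directions within each treatment comparison except GSK126 in H2731, where all 5 were higher.

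**Figure D1:**
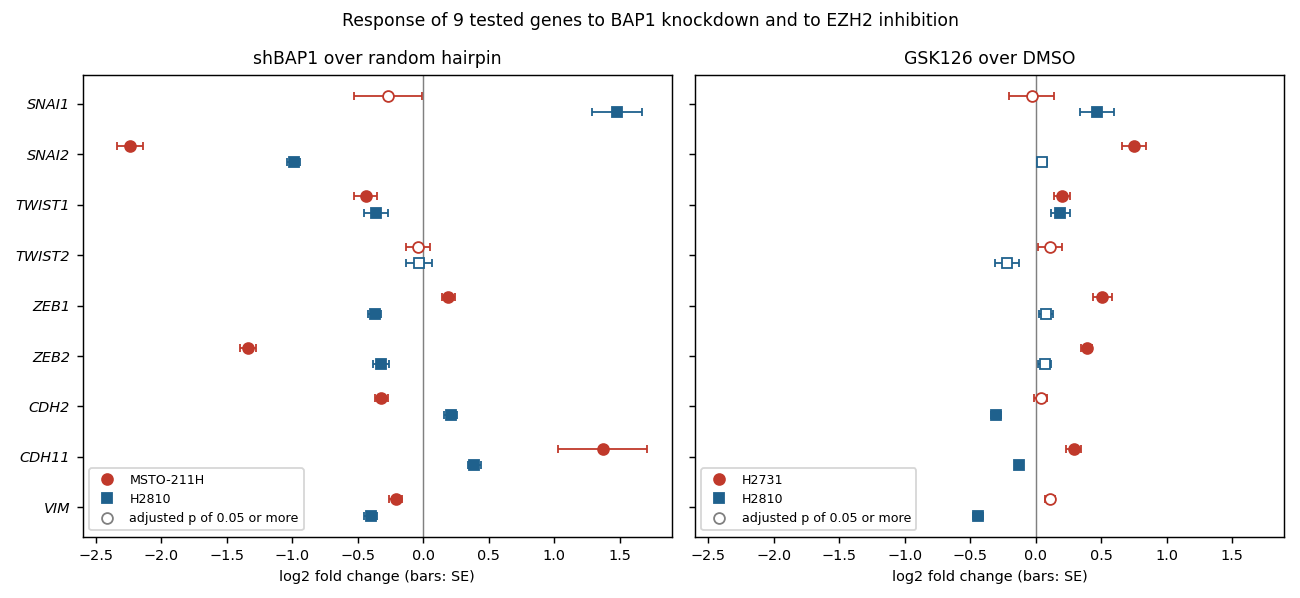
Log2 fold change with its SE for the 9 tested genes, with shBAP1 over the Random shRNA (left) and with GSK126 over DMSO (right). Filled symbols passed an adjusted p under 0.05. The SE bar of CDH11 in MSTO-211H understates its counting error. In the left panel SNAI2 lies at -2.24 in MSTO-211H and -0.99 in H2810, and ZEB1 lies at 0.19 and -0.37, on opposite sides of 0. In the right panel the H2731 points of SNAI2, ZEB1, ZEB2, TWIST1 and CDH11 are filled and above 0.

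SNAI1 (Snail, ENSG00000124216, chromosome 20, 49982980 to 49988886; positions are those of the files, which match GRCh38) is a zinc-finger repressor of CDH1 that is usually short-lived and induced early in the transition. In H2810, SNAI1 was at 6.47 and 6.55 CPM with shBAP1, against 2.58 and 2.04 CPM with the Random shRNA, a log2 fold change of 1.48 ± 0.19 (SE; adjusted p = 8.37e-05). Both shBAP1 libraries lay above both Random shRNA libraries, and 187 of 15872 tested genes had a larger rise. In MSTO-211H it was at 1.59 and 1.37 CPM with shBAP1, against 1.39 and 2.17 CPM with the Random shRNA. The MSTO-211H groups overlapped, at 29 to 45 counts a library, and the gene was not called (-0.27 ± 0.26, adjusted p = 0.437). The response was lower in MSTO-211H than in H2810 by a log2 difference of -1.76 ± 0.33 (adjusted p = 0.00229). With GSK126 in H2810, SNAI1 was at 8.88 and 7.61 CPM, against 6.05 and 5.86 CPM with DMSO (0.47 ± 0.13, adjusted p = 0.0103). That call was lost without GSK126 replicate 1 (0.36, adjusted p = 0.141), without DMSO replicate 2 (0.45, adjusted p = 0.0522) and in DESeq2 (adjusted p = 0.123). In H2731 the level was 3.07 and 3.76 CPM with GSK126, against 3.78 and 3.14 CPM with DMSO, which overlapped (-0.03 ± 0.17, adjusted p = 0.948). The difference between the lines' responses to the drug was -0.50 ± 0.22 and did not pass the test (adjusted p = 0.147).

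SNAI2 (Slug, ENSG00000019549, chromosome 8, 48917598 to 48921740), the second Snail factor, is a marker of the neural crest and of mesenchymal cells. It fell with shBAP1 in both lines. In MSTO-211H it was at 2.21 and 2.29 CPM with shBAP1, against 10.9 and 10.5 CPM with the Random shRNA (-2.24 ± 0.10, adjusted p = 3.29e-08), which is 98 counts in all against 445. In H2810 it was at 85.9 and 82.7 CPM with shBAP1, against 165 and 170.0 CPM with the Random shRNA (-0.99 ± 0.05, adjusted p = 7.90e-08). Groups did not overlap in either line, and the fall was larger in MSTO-211H on the log2 scale (-1.25 ± 0.12, adjusted p = 1.87e-05). In MSTO-211H 253 of 15872 tested genes had a larger fall, in H2810 1355. With GSK126 the gene rose in H2731, where it was at 13.2 and 15.7 CPM, against 8.26 and 8.91 CPM with DMSO (0.75 ± 0.09, adjusted p = 4.75e-06). In H2810 it was at 219 and 216 CPM with GSK126, against 211 and 208 CPM with DMSO, and was not called (0.05 ± 0.04, adjusted p = 0.386). The drug response was higher in H2731 by 0.70 ± 0.10 (adjusted p = 5.37e-05).

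The lines differed more in SNAI2 than in SNAI1. SNAI2 was lower in H2731 than in H2810 with DMSO by a log2 fold change of -4.61 ± 0.06 (adjusted p = 2.39e-22), and lower in MSTO-211H than in H2810 with the Random shRNA by -3.97 ± 0.06 (adjusted p = 3.64e-13). For SNAI1 these differences were -0.77 ± 0.15 (adjusted p = 0.000136) and -0.38 ± 0.24 (adjusted p = 0.161). The second was called without MSTO-211H Random shRNA replicate 2 (-0.73, adjusted p = 0.0384), the library with the higher SNAI1 level of its group. Of the fibroblast markers tested, 0 were higher and 7 lower in H2731 than in H2810, and 1 was higher and 7 lower in MSTO-211H than in H2810. Of all tested genes, 82.2% and 79.7% were called in these comparisons. All 9 markers summed to 16.1 and 18.0 CPM in H2731 with DMSO and to 9082 and 10218 CPM in H2810 with DMSO, and to between 945 and 983 CPM in MSTO-211H and between 9983 and 10549 CPM in H2810 with the Random shRNA. LUM and DPT were at 0 counts in H2810 with DMSO, DCN and DPT were at 0 in H2731 with DMSO, and COL1A1, a collagen that many mesenchymal cells make, led the sum in H2810 with DMSO at 5528 CPM. The part of these markers in the differences between lines was not tested, and in bulk RNA fewer cells of a type and less RNA per cell cannot be told apart.

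Levels of different genes were compared per kilobase of annotated exon. In H2810 with shBAP1, SNAI2 was 6.90 and 6.56 times SNAI1 per kilobase, against 33.3 and 43.3 times with the Random shRNA. In MSTO-211H with shBAP1 the ratio was 0.724 and 0.872, against 4.09 and 2.51 with the Random shRNA. SNAI1 was thus the more abundant of the pair per kilobase only in MSTO-211H with shBAP1, among the 8 human groups. In counts it was still the lower there, at 33 and 31, against 46 and 52 for SNAI2. The order in that group therefore rests on few counts and on the annotated exon lengths, 1.71 kilobases for SNAI1 and 3.28 for SNAI2. With GSK126 the ratio was 2.24 and 2.16 in H2731, against 1.13 and 1.48 with DMSO, and 12.8 and 14.7 in H2810, against 18.1 and 18.4 with DMSO. The groups did not overlap in any of these 4 comparisons, with lower ratios for shBAP1 in both lines and for GSK126 in H2810, and a higher ratio for GSK126 in H2731. The ratios are descriptions with no test of their own. How often ratios of other genes stand apart between groups of 2 libraries was not counted, so nothing is concluded from the separation.

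**Figure D2:**
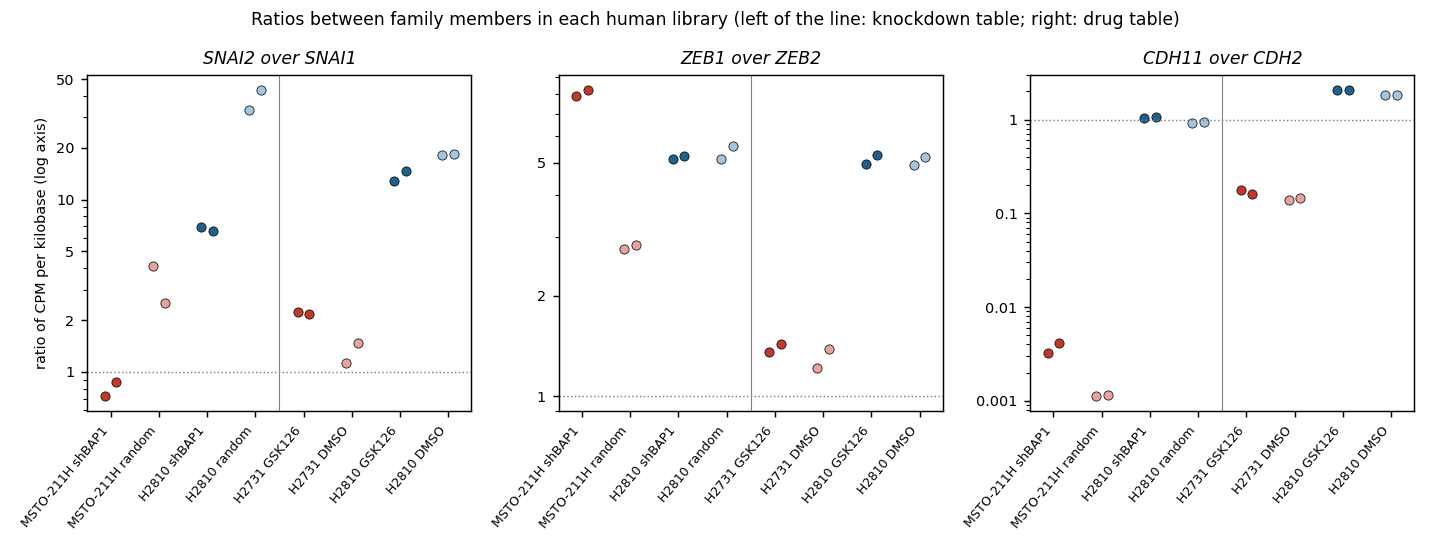
Ratio of CPM per kilobase of exon between SNAI2 and SNAI1, ZEB1 and ZEB2, and CDH11 and CDH2 in each human library, on log axes, with the dotted line at equal levels. Each point is a library. ZEB1 over ZEB2 is at 7.91 and 8.26 in MSTO-211H with shBAP1, against 2.76 and 2.84 with the Random shRNA, and CDH11 over CDH2 spans 0.00112 in MSTO-211H to 2.08 in H2810.

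TWIST1 (ENSG00000122691, chromosome 7, 19020991 to 19117636) and TWIST2 (ENSG00000233608, chromosome 2, 238848032 to 238910534) are closely related helix-loop-helix factors of mesoderm, and the labels do not say how reads that match both were counted. TWIST1 was lower with shBAP1 in both lines. It was at 13.8 and 14.6 CPM in MSTO-211H with shBAP1, against 21.0 and 17.4 CPM with the Random shRNA (-0.44 ± 0.09, adjusted p = 0.00269). In H2810 it was at 18.7 and 18.9 CPM with shBAP1, against 23.7 and 24.5 CPM with the Random shRNA (-0.36 ± 0.09, adjusted p = 0.00573). The groups were apart in each line, and the fall did not differ between the lines beyond its error (-0.08 ± 0.13, adjusted p = 0.714). With GSK126, TWIST1 was at 29.4 and 29.8 CPM in H2731, against 25.2 and 26.2 CPM with DMSO (0.20 ± 0.06, adjusted p = 0.0202), and at 27.4 and 25.8 CPM in H2810, against 23.3 and 23.5 CPM with DMSO (0.19 ± 0.07, adjusted p = 0.0409).

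Both drug calls of TWIST1 were small and not stable. In H2731 the call was lost in DESeq2 (adjusted p = 0.176) and without DMSO replicate 1, GSK126 replicate 1 or GSK126 replicate 2 (adjusted p = 0.131, 0.0618 and 0.112). In H2810 it was lost without the low-count filter (adjusted p = 0.0825), in DESeq2 (adjusted p = 0.238) and when any of the 4 libraries was left out (adjusted p = 0.0580 to 0.268). TWIST2 was not called in any of the 4 treatment comparisons. Its log2 fold change was -0.04 ± 0.09 in MSTO-211H and -0.03 ± 0.10 in H2810 with shBAP1, and 0.11 ± 0.09 in H2731 and -0.22 ± 0.09 in H2810 with GSK126, and all 4 adjusted p lay between 0.0672 and 0.872. Between lines TWIST2 was lower in H2731 than in H2810 with DMSO (-0.48 ± 0.09, adjusted p = 5.00e-05) and higher in MSTO-211H than in H2810 with the Random shRNA (0.48 ± 0.10, adjusted p = 0.000713). It was at 20.7 and 18.2 CPM in MSTO-211H, against 13.3 and 14.7 CPM in H2810. TWIST2 was thus the 1 gene of the 9 that was higher in MSTO-211H. TWIST1 was lower in MSTO-211H than in H2810 with the Random shRNA (-0.33 ± 0.09, adjusted p = 0.00469), but not without MSTO-211H replicate 2 (-0.19, adjusted p = 0.0703), and it was not called between H2731 and H2810 with DMSO (0.13 ± 0.07, adjusted p = 0.0681).

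ZEB1 (ENSG00000148516, chromosome 10, 31318495 to 31529814) and ZEB2 (ENSG00000169554, chromosome 2, 144364364 to 144521057) are zinc-finger homeobox repressors with separate clusters of zinc fingers that bind paired E-boxes. They moved together with GSK126 in H2731 and parted with shBAP1 in MSTO-211H. RefSeq start-site windows, 250 bases before to 50 bases after a start in GRCh38.p14, were matched by symbol for TWIST2, ZEB1, ZEB2, CDH2 and VIM. The E-box variant searched was CAGGTG, with CACCTG as its other strand, and 7231 of all 35116 windows (20.6%) held at least 1 match and 223 (0.64%) at least 3. ZEB1 had 7 windows, of which 1 held 3 matches, 1 held 1 match and 5 held 0. The windows of ZEB2, TWIST2 and VIM and both windows of CDH2 held 0. The ZEB1 window with 3 matches and the ZEB2 window are shown because the response to shBAP1 differed between the lines in opposite directions for these genes. Capitals mark the matches, at -242 (CACCTG), -85 (CAGGTG) and 34 (CAGGTG) from the ZEB1 start, which do not overlap. Letters alone do not show that a factor binds, and the absence of a match says only that these letters are not in the window.
ZEB1, chr10:31318966-31319265, plus strand: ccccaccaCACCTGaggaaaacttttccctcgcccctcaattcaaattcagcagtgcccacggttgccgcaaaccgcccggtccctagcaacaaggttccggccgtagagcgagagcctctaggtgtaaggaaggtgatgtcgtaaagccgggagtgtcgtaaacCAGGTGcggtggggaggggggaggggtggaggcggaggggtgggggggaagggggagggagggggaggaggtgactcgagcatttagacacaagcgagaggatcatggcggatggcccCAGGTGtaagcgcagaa
ZEB2, chr2:144520070-144520369, minus strand: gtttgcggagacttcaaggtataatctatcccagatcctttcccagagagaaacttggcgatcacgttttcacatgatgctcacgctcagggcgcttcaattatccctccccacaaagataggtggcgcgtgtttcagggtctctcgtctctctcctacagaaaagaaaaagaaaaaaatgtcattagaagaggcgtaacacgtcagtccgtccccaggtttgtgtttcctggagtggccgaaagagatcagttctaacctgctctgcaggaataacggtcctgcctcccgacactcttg

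ZEB2 was the second transcription factor with a large fall in MSTO-211H. It was at 20.2 and 20.6 CPM with shBAP1, against 51.7 and 51.8 CPM with the Random shRNA (-1.34 ± 0.06, adjusted p = 5.48e-08), and 843 of 15872 tested genes had a larger fall. In H2810 it was at 48.5 and 46.1 CPM with shBAP1, against 61.8 and 56.3 CPM with the Random shRNA (-0.32 ± 0.06, adjusted p = 0.000992). No groups overlapped, and the fall was larger in MSTO-211H (-1.02 ± 0.09, adjusted p = 1.16e-05). ZEB1 was lower with shBAP1 in H2810, at 82.2 and 79.7 CPM, against 104.6 and 104.6 CPM with the Random shRNA (-0.37 ± 0.05, adjusted p = 0.000130). In MSTO-211H ZEB1 was slightly higher, at 53.0 and 56.4 CPM with shBAP1, against 47.2 and 48.7 CPM with the Random shRNA (0.19 ± 0.05, adjusted p = 0.0136). That rise was not called without Random shRNA replicate 1 (0.17, adjusted p = 0.0936) or without shBAP1 replicate 2 (0.15, adjusted p = 0.138). The difference between the lines' ZEB1 responses, 0.56 ± 0.07, was called (adjusted p = 0.000234) and held in all 14 alternatives. Per kilobase, ZEB1 was 7.91 and 8.26 times ZEB2 in MSTO-211H with shBAP1, against 2.76 and 2.84 times with the Random shRNA, and 5.13 and 5.22 times in H2810 with shBAP1, against 5.12 and 5.62 times. The ratio thus stood apart between groups in MSTO-211H and overlapped in H2810. The exon length of ZEB2, 26.15 kilobases, counts every annotated exon, so the size of the ratio depends on that length while its change between groups does not.

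With GSK126 in H2731, ZEB1 was at 35.8 and 38.2 CPM, against 24.2 and 28.1 CPM with DMSO (0.51 ± 0.07, adjusted p = 1.55e-05). ZEB2 was at 79.6 and 80.6 CPM with GSK126, against 60.6 and 61.7 CPM with DMSO (0.39 ± 0.04, adjusted p = 2.04e-06). Both GSK126 libraries lay above both DMSO libraries for each gene. In H2810 the drug moved neither past the test: ZEB1 had 87.3 and 91.1 CPM with GSK126, against 83.2 and 85.6 CPM with DMSO (0.08 ± 0.05, adjusted p = 0.287), and ZEB2 had 53.1 and 52.2 CPM, against 51.0 and 49.6 CPM (0.07 ± 0.05, adjusted p = 0.350). The drug responses were higher in H2731 than in H2810 by 0.43 ± 0.09 for ZEB1 (adjusted p = 0.00166) and 0.32 ± 0.07 for ZEB2 (adjusted p = 0.00200). Between lines the genes went apart: with DMSO, ZEB1 was lower in H2731 than in H2810 (-1.70 ± 0.06, adjusted p = 1.25e-15), and ZEB2 was higher (0.28 ± 0.05, adjusted p = 2.11e-05). With the Random shRNA, ZEB1 was lower in MSTO-211H than in H2810 (-1.13 ± 0.05, adjusted p = 2.32e-09). ZEB2 was also lower there (-0.19 ± 0.06, adjusted p = 0.00994), a call lost in DESeq2 (adjusted p = 0.0626), with no filter (adjusted p = 0.0919), and without H2810 Random shRNA replicate 1 or either MSTO-211H library (adjusted p = 0.0967, 0.0536 and 0.0538). Reads of ZEB1 and its antisense neighbour ZEB1-AS1 cannot be told apart without the strand setting, but their exons share 4.6% of ZEB1's exon bases and ZEB1-AS1 held 47 to 176 counts a library, against 555 to 2438 for ZEB1.

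**Figure D3:**
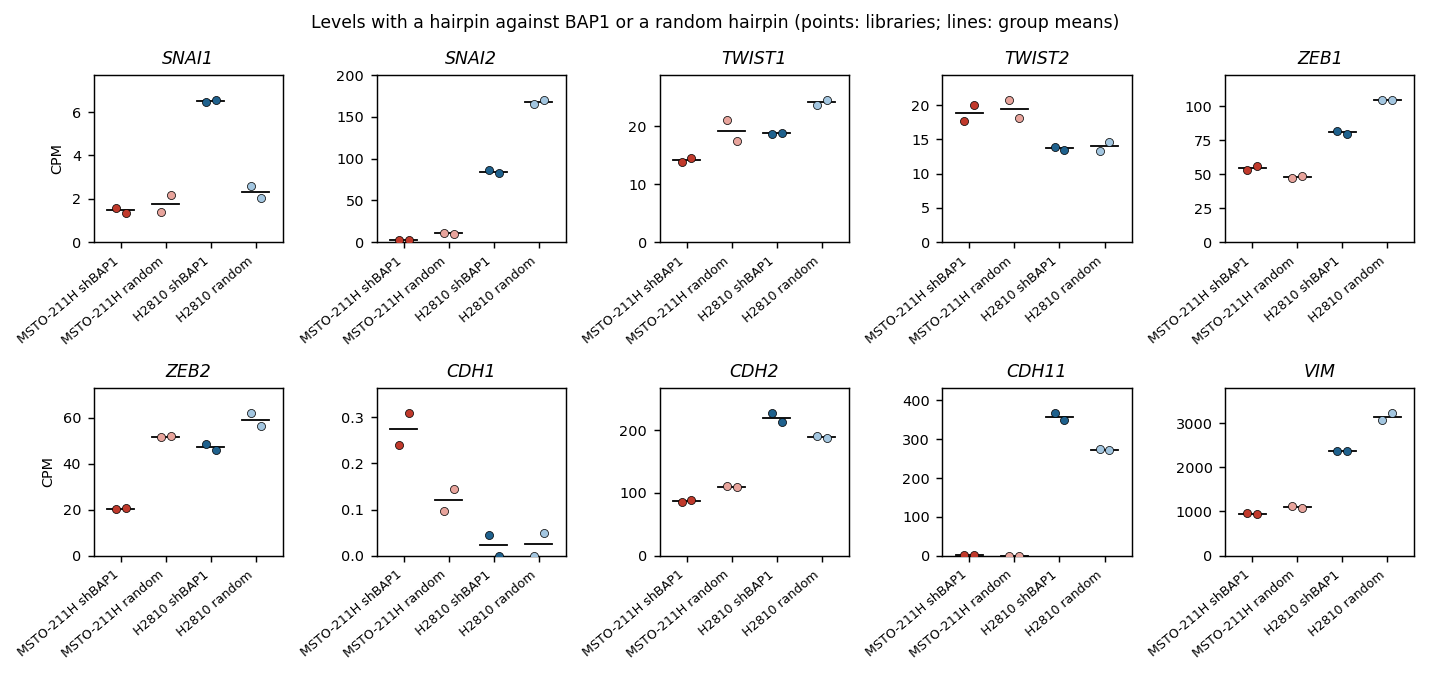
CPM of the 10 genes in each library of the knockdown table, with shBAP1 left of the Random shRNA in MSTO-211H and then in H2810. Horizontal lines are group means and each panel has its own axis from 0. ZEB2 stands at 20.2 and 20.6 CPM in MSTO-211H with shBAP1, against 51.7 and 51.8 CPM with the Random shRNA, and CDH11 is seen in H2810 but lies near 0 in MSTO-211H.

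CDH1 (E-cadherin, ENSG00000039068, chromosome 16, 68737292 to 68835541), the target that SNAI and ZEB factors are known for repressing, was almost silent in all human libraries. It had 5 and 7 counts in MSTO-211H with shBAP1, against 2 and 3 with the Random shRNA, a ratio of the summed CPM of 2.30 whose exact counting interval (95%) ran from 0.754 to 8.33. In H2810 it had 1 and 0 counts with shBAP1, against 0 and 1 with the Random shRNA. In H2731 it had 10 and 8 counts with GSK126, against 8 and 8 with DMSO, a ratio of 1.15 (0.554 to 2.41), and in H2810 it had 0 and 1 counts with GSK126, against 2 and 1 with DMSO. A count of 0 in a library of this depth allows up to 3 counts, 0.129 to 0.171 CPM in the human libraries. A change of CDH1 with either treatment was not detectable at this depth. Between lines, H2731 had 16 counts in all with DMSO, against 3 in H2810 with DMSO, a ratio of 4.74 (1.36 to 25.4), and MSTO-211H had 5 with the Random shRNA, against 1 in H2810, a ratio of 5.27 (0.589 to 249). These intervals cover counting error only.

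CDH2 (N-cadherin, ENSG00000170558, chromosome 18, 27932879 to 28177946) had at least 1666 counts in every human library. With shBAP1 it moved in opposite directions in the lines. It was at 86.1 and 89.4 CPM in MSTO-211H with shBAP1, against 110.4 and 109 CPM with the Random shRNA (-0.32 ± 0.05, adjusted p = 0.000375), and at 227 and 213 CPM in H2810 with shBAP1, against 191 and 188 CPM (0.21 ± 0.05, adjusted p = 0.00469). Groups were apart in each line, and the responses differed by -0.53 ± 0.07 (adjusted p = 0.000252). With GSK126 it fell in H2810 to 159 and 159 CPM, against 192 and 199 CPM with DMSO (-0.30 ± 0.04, adjusted p = 1.09e-05). In H2731 it was at 82.7 and 89.4 CPM with GSK126, against 83.1 and 84.3 CPM with DMSO, which overlapped (0.04 ± 0.05, adjusted p = 0.576), and the drug responses differed by 0.34 ± 0.06 (adjusted p = 0.000505). CDH2 was lower in H2731 than in H2810 with DMSO (-1.23 ± 0.04, adjusted p = 6.47e-16) and lower in MSTO-211H than in H2810 with the Random shRNA (-0.79 ± 0.05, adjusted p = 3.80e-08).

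CDH11 (ENSG00000140937, chromosome 16, 64943753 to 65126112) separated the lines most of the 9 genes. MSTO-211H had 4 and 4 counts of CDH11 with the Random shRNA, against 6380 and 5593 in H2810, a ratio of summed CPM of 0.000704 with a counting interval of 0.000304 to 0.00139. CDH11 entered this test only through its level in H2810. Its call between these lines follows from that entry, as does its rank, with 58 of 15872 tested genes falling further. Neither is counted as support. In H2731 with DMSO it was at 17.7 and 18.9 CPM, against 551 and 562 CPM in H2810 with DMSO (-4.93 ± 0.05, adjusted p = 6.12e-25). Per kilobase, CDH11 was 0.138 and 0.145 times CDH2 in H2731 with DMSO, against 1.85 and 1.83 times in H2810 with DMSO, and 0.00112 and 0.00114 times in MSTO-211H with the Random shRNA, against 0.925 and 0.934 times in H2810. The level in H2810 itself was 551 and 562 CPM with DMSO and 274 and 272 CPM with the Random shRNA, in tables that were scaled separately and so were not tested against each other.

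With shBAP1 CDH11 rose in H2810, where it was at 366 and 348 CPM, against 274 and 272 CPM with the Random shRNA (0.39 ± 0.05, adjusted p = 6.37e-05). In MSTO-211H it had 9 and 13 counts with shBAP1, against 4 and 4 with the Random shRNA, a ratio of 2.63 (1.13 to 6.84). The gene passed the low-count filter only through H2810, and with the MSTO-211H groups alone it was filtered out and had no test. In the fit of all groups the difference was just past the threshold (1.37 ± 0.34, adjusted p = 0.0304), but not with no filter on low counts (adjusted p = 0.0523), nor without Random shRNA replicate 1, Random shRNA replicate 2 or shBAP1 replicate 2 (adjusted p = 0.113, 0.111 and 0.193). The responses of the lines were not shown to differ (0.98 ± 0.35, adjusted p = 0.179). At so few MSTO-211H counts the SE of 1.37 and of 0.98 understates the counting error, which the interval above describes. With GSK126 CDH11 rose in H2731, at 22.5 and 22.0 CPM, against 17.7 and 18.9 CPM with DMSO (0.29 ± 0.06, adjusted p = 0.00155). In H2810 it was lower, at 504 and 510.5 CPM, against 551 and 562 CPM with DMSO (-0.13 ± 0.03, adjusted p = 0.00492), a call lost without GSK126 replicate 1 (-0.12, adjusted p = 0.0808). The drug responses of the lines differed by 0.42 ± 0.07 (adjusted p = 0.000227), on opposite sides of 0.

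VIM (ENSG00000026025, chromosome 10, 17228241 to 17237593) was among the abundant messages in every library. It was lower with shBAP1 in both lines, at 958 and 945 CPM in MSTO-211H, against 1129 and 1079 CPM with the Random shRNA (-0.21 ± 0.05, adjusted p = 0.00269), and at 2377 and 2377 CPM in H2810, against 3076 and 3218 CPM (-0.40 ± 0.05, adjusted p = 3.39e-05). No groups overlapped. The difference between these responses was at the edge of the threshold (0.19 ± 0.06, adjusted p = 0.0494) and passed in 2 of 14 alternatives, with adjusted p from 0.0161 to 0.334. It did not pass when any library other than H2810 Random shRNA replicate 1 was left out (0.12 to 0.22). With GSK126 VIM fell in H2810 to 2173 and 2154 CPM, against 3005 and 2849 CPM with DMSO (-0.44 ± 0.04, adjusted p = 9.71e-08). In H2731 it was at 1064 and 1055 CPM with GSK126, against 1039 and 929 CPM with DMSO (0.11 ± 0.04, adjusted p = 0.0676). This was called without DMSO replicate 1 (0.19, adjusted p = 0.00110), with no filter (adjusted p = 0.00448) and with a replicate block (adjusted p = 0.0200). The drug responses differed by 0.54 ± 0.06 (adjusted p = 1.44e-06). VIM was lower in H2731 than in H2810 with DMSO (-1.57 ± 0.04, adjusted p = 8.21e-18) and lower in MSTO-211H than in H2810 with the Random shRNA (-1.51 ± 0.05, adjusted p = 7.12e-11). The summed level of 9 fibroblast markers, most of it from COL1A1 and COL3A1, was also lower with both treatments in H2810, at 7448 to 8349 CPM with shBAP1, against 9983 to 10549 CPM with the Random shRNA, and at 8379 to 8647 CPM with GSK126, against 9082 to 10218 CPM with DMSO. Gene by gene, 2 of the 8 tested markers were higher and 5 lower with shBAP1 in H2810 (median log2 fold change -0.29), but with GSK126 4 of 7 were higher and 2 lower (median 0.12), with FAP at 0.86 ± 0.07 and COL3A1 at -0.29 ± 0.04. In MSTO-211H the sum was 1135 to 1231 CPM with shBAP1, against 945 to 983 CPM, carried by COL3A1 at 1078 to 1174 CPM with shBAP1, against 855 to 879 CPM. There 1 of 8 tested markers was higher and 4 were lower (median -0.52), with COL1A1 at -1.12 ± 0.10 and FAP at -1.91 ± 0.23. Of all tested genes, 46.2% were called with shBAP1 in MSTO-211H, 45.8% with shBAP1 in H2810 and 29.3% with GSK126 in H2810. The part of these markers in the VIM differences was not tested. The antisense gene VIM-AS1 shares 12.7% of VIM's exon bases and held 19 to 94 counts a library, against at least 18354 for VIM.

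**Figure D4:**
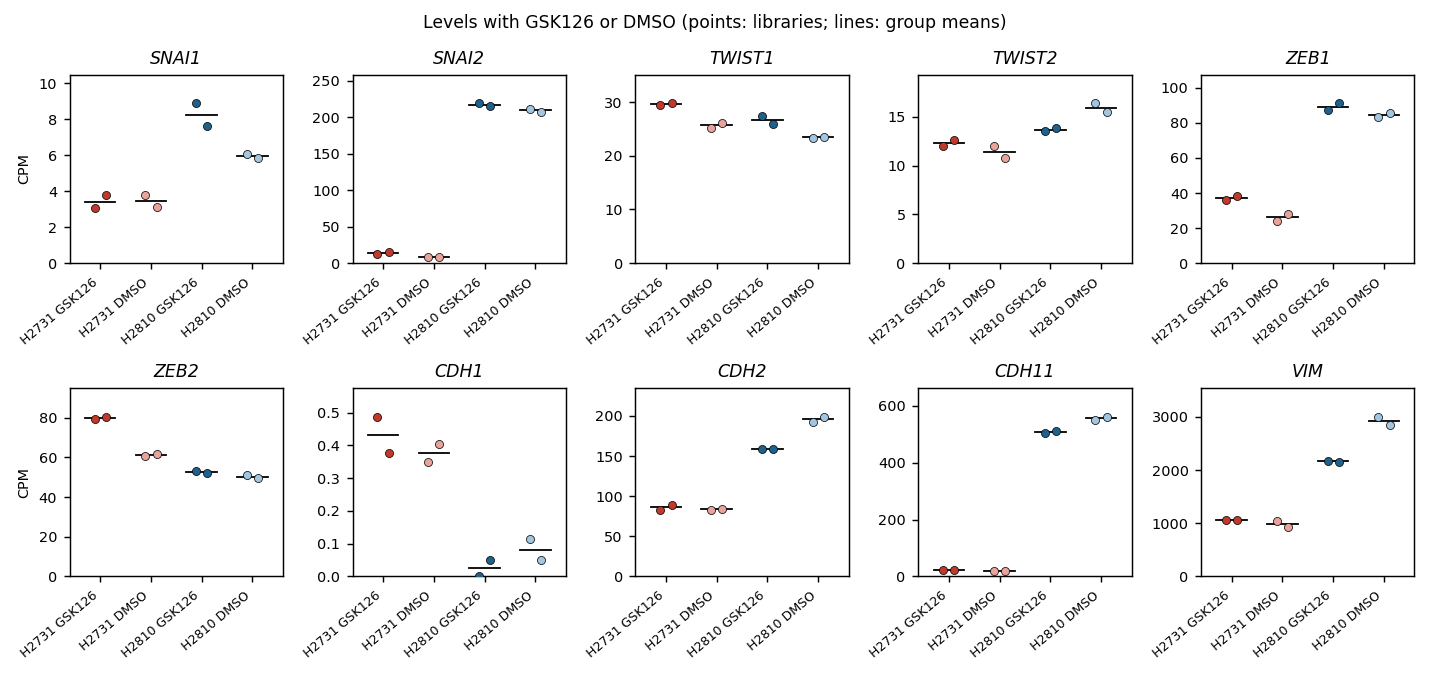
CPM of the 10 genes in each library of the drug table, with GSK126 left of DMSO in H2731 and then in H2810. Horizontal lines are group means and each panel has its own axis from 0. VIM lies at 2173 and 2154 CPM in H2810 with GSK126, against 3005 and 2849 CPM with DMSO, and SNAI2 and CDH11 are far lower in H2731 than in H2810.

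Other genes of the pathway were counted from lists written by function. Of all tested genes, 46.2% were called with shBAP1 in MSTO-211H and 45.8% in H2810. With GSK126, 24.7% were called in H2731 and 29.3% in H2810. The counts of every list are to be read beside these shares, and no list was tested as a set. Of 17 tested mesenchymal genes of transition signatures, 4 were higher and 9 lower with shBAP1 in MSTO-211H (median log2 fold change -0.24), and 1 was higher and 12 lower in H2810 (median -0.40), against a median over all genes of -0.02 and -0.03. THBS1, a matrix glycoprotein, fell by 1.48 ± 0.09 in H2810 (adjusted p = 2.83e-07). With GSK126, 8 of 18 tested genes of this list were higher and 2 lower in H2731 (median 0.25), and 3 were higher and 10 lower in H2810 (median -0.13). In H2731 with GSK126, PDGFRB was lower (-0.39 ± 0.04) and had the smallest p of the list's called genes. LOX, a collagen crosslinking enzyme, was higher there (0.40 ± 0.04). Of 10 tested epithelial genes known as targets of SNAI and ZEB factors, 4 were higher and 0 lower with shBAP1 in MSTO-211H (median 0.14), and 2 were higher and 2 lower in H2810 (median -0.10). MUC1, an epithelial mucin, rose by 0.50 ± 0.11 in MSTO-211H. With GSK126, 2 of 13 were higher and 4 lower in H2731 (median 0.06), and 1 was higher and 3 lower in H2810 (median 0.00).

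Among other regulators of the transition, 5 of 12 tested were higher and 2 lower with shBAP1 in MSTO-211H, and 6 were higher and 3 lower in H2810. HMGA2, a chromatin protein that binds AT-rich DNA, rose 3.99-fold in MSTO-211H and 1.68-fold in H2810 with shBAP1, and 3.41-fold in H2731 with GSK126, with an SE on the log2 scale of 0.05, 0.05 and 0.16 in that order. Its drug response was higher in H2731 than in H2810 by a log2 difference of 1.71 ± 0.18 (edgeR, adjusted p = 1.08e-06), so the rise with GSK126 was not shared alike by both lines. With GSK126, 5 of 14 were higher and 1 lower in H2731, and 4 were higher and 3 lower in H2810. SOX4, a transcription factor induced by TGF-beta, rose by 0.43 ± 0.06 in H2731 and by 1.03 ± 0.05 in H2810. Of 14 genes of TGF-beta signalling, the best known inducer of the transition, 7 were higher and 3 lower with shBAP1 in MSTO-211H (median 0.15), and 3 were higher and 7 lower in H2810 (median -0.20). This list also holds the pathway's inhibitors SMAD7, SKI and SKIL, so its counts and medians give no direction of signalling. SMAD2, a signal transducer of the receptors, was lower with shBAP1 in MSTO-211H and in H2810 (-0.70 ± 0.05 and -0.82 ± 0.05). With GSK126, 5 were higher and 2 lower in H2731 (median 0.13), among them the ligand TGFB2 (1.30 ± 0.09) and the receptor TGFBR1 (0.66 ± 0.05), and 2 were higher and 6 lower in H2810 (median -0.08).

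Of the other cadherins, 7 were tested with the hairpins and 8 with the drug. With shBAP1, 2 were higher and 1 lower in MSTO-211H, and 0 were higher and 3 lower in H2810, near the shares of all tested genes called (46.2% and 45.8%). With GSK126, 4 were higher and 1 lower in H2731, and 2 were higher and 1 lower in H2810. CDH6 (K-cadherin) rose with GSK126 in both lines, by 0.93 ± 0.08 in H2731 and 1.02 ± 0.07 in H2810. Of the catenins and other partners of cadherins, 5 of 10 were higher and 3 lower with shBAP1 in MSTO-211H, and 2 were higher and 1 lower in H2810, while with GSK126 3 of 11 were higher and 4 lower in H2731, and 5 were higher and 1 lower in H2810. JUP, which encodes plakoglobin, moved in opposite directions, at 1.14 ± 0.17 in MSTO-211H and -0.28 ± 0.09 in H2810 with shBAP1, and at -0.37 ± 0.04 in H2731 and 1.26 ± 0.04 in H2810 with GSK126. Of the corepressors that SNAI and ZEB factors recruit, 5 of 10 were higher and 3 lower with shBAP1 in MSTO-211H and 3 were higher and 1 lower in H2810, while with GSK126 0 were higher and 5 lower in H2731 and 0 were higher and 3 lower in H2810. Of 11 listed epithelial gatekeepers (GRHL, OVOL, ESRP, ELF3, EHF and KLF factors), only 5 were tested. In the drug table these were GRHL1, ESRP2, ELF3, KLF4 and KLF5. Of the 5, 1 was higher and 1 lower in each line with shBAP1. With GSK126, 1 was higher and 0 lower in H2731, and 2 were higher and 1 lower in H2810. Of 6 tested filament partners of vimentin, 1 was higher and 0 lower in MSTO-211H and 1 was higher and 2 lower in H2810 with shBAP1, and 0 changed in H2731 and 1 was higher and 2 lower in H2810 with GSK126.

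In the mouse cells no gene was called, and 823 of 12225 tested genes had an unadjusted p under 0.05 in edgeR, while limma-voom called 0 and DESeq2 called 302 genes, none of them among the 9. Twist2 (ENSMUSG00000007805, chromosome 1, 91801461 to 91848028, GRCm38) was at 23.3, 27.0 and 14.6 CPM in BNC replicates 4, 5 and 6, against 13.0 and 8.74 CPM in NC replicates 4 and 5 (0.99 ± 0.39, unadjusted p = 0.0494, adjusted p = 0.738). All BNC libraries lay above both NC libraries. Its exons share 46.5% of their bases with the antisense gene Gm29100, which held 14 to 48 counts a library against 173 to 541 for Twist2, and without the strand setting their reads cannot be told apart. Vim was also higher in every BNC library, at 5674, 6023 and 16005 CPM, against 5126 and 4498 CPM in NC (0.94 ± 0.56, adjusted p = 0.838). Most of that mean came from BNC replicate 6, and without it the log2 fold change was 0.28 (adjusted p = 0.349).

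The other 7 tested genes overlapped between the genotypes. The share of all tested genes whose libraries stood apart was not counted, so nothing is concluded from the separation of Twist2 and Vim. Cdh11 was at 106, 96.5 and 1.62 CPM in BNC, against 203 and 38.6 CPM in NC (-0.83 ± 1.53, adjusted p = 0.949), so replicate 6 was more than an order of magnitude below every other library. Cdh2 was at 902, 823 and 599.8 CPM in BNC, against 369 and 883 CPM in NC (0.31 ± 0.43, adjusted p = 0.937). Cdh1 had 0, 2 and 4 counts in BNC, against 1 and 50 in NC, and the 50 counts of NC replicate 5 made up almost all of the group's sum. Snai1 was at 30.5, 28.9 and 57.8 CPM in BNC, against 17.8 and 33.4 CPM in NC (0.61 ± 0.46, adjusted p = 0.870). Snai2 was at 22.0, 20.9 and 50.3 CPM in BNC, against 39.9 and 23.7 CPM in NC (-0.03 ± 0.50, adjusted p = 0.997). For both Snail genes replicate 6 was the highest of all 5 libraries. Twist1 was at 17.0, 15.7 and 37.7 CPM in BNC, against 24.3 and 27.6 CPM in NC (-0.15 ± 0.46, adjusted p = 0.974). Zeb1 was at 57.1, 53.4 and 39.7 CPM in BNC, against 68.8 and 50.9 CPM in NC (-0.26 ± 0.25, adjusted p = 0.903). Zeb2 was at 76.7, 64.0 and 119.6 CPM in BNC, against 59.2 and 80.9 CPM in NC (0.31 ± 0.34, adjusted p = 0.911). Replicate 6 was thus the lowest library for Zeb1 and the highest for Twist1 and Zeb2. Without it, BNC over NC was -0.57 for Snai2, -0.68 for Twist1, 1.20 for Twist2, -0.12 for Zeb1, 0.45 for Cdh2, -0.26 for Cdh11, 0.20 for Snai1 and -0.002 for Zeb2, with adjusted p from 0.132 to 0.996.

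**Figure D5:**
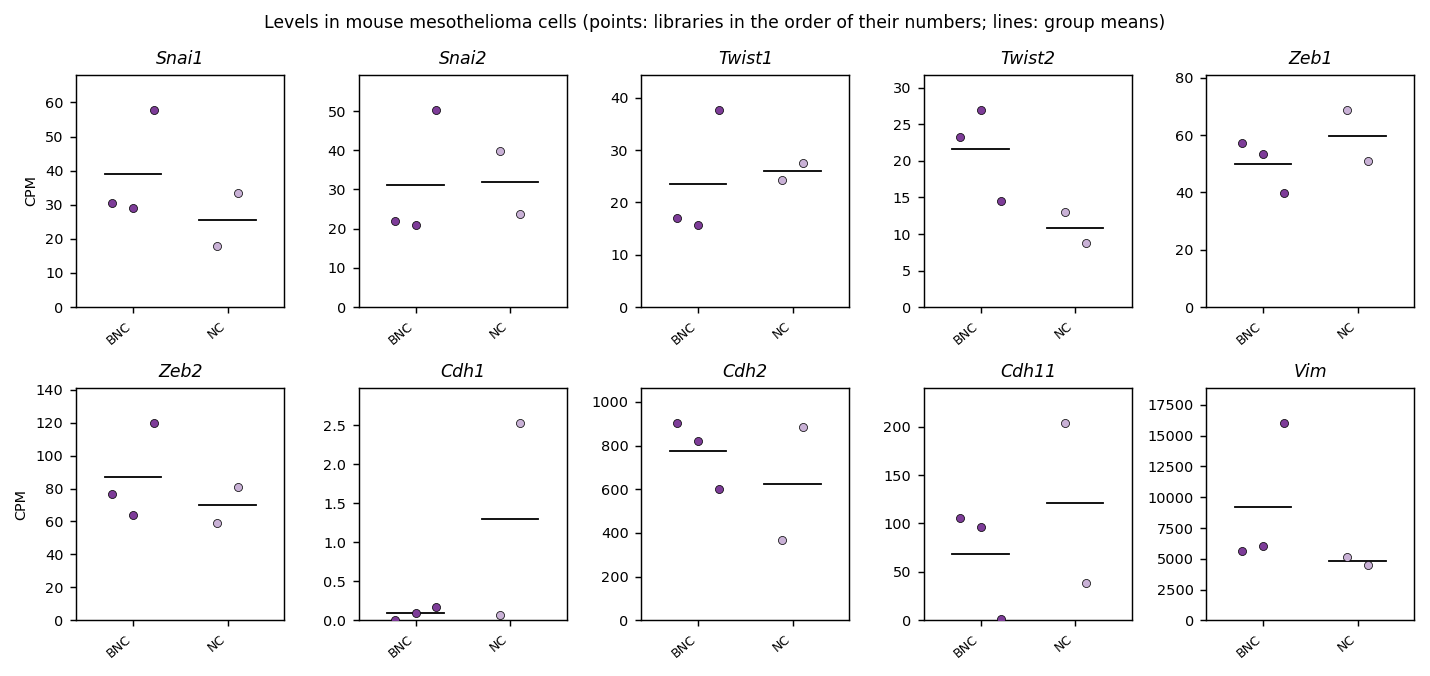
CPM of the 10 mouse genes in BNC and NC libraries, with points in the order of replicate numbers (4, 5 and 6 in BNC, 4 and 5 in NC). Horizontal lines are group means and each panel has its own axis from 0. BNC replicate 6 is the lowest library for Cdh11 (1.62 CPM) and the highest for Vim (16005 CPM).

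Across the 16 human libraries, each gene's log2 CPM was centred on the mean of its own table and compared with 11325 genes by Pearson's r, as a description with no p, since the libraries share 3 lines and 8 groups. SNAI2 and VIM were alike at r = 0.97, SNAI2 and CDH2 at 0.96, and CDH11 and VIM at 0.92, and all 4 of these genes were highest in H2810. ZEB2 was most like TWIST1 among the 9 (0.89) and unlike ZEB1 (-0.01). The nearest genes were PTK7 for SNAI2 (0.997), AKR1C2 for CDH11 (0.999), PTGER4 for CDH2 (0.994), TNFAIP3 for VIM (0.990), TNPO1 for ZEB2 (0.964), LAP3 for SNAI1 (0.963), CEP162 for TWIST1 (0.953) and DIS3L for TWIST2 (0.953).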

How the data were processed

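Column-purified RNA went into TruSeq poly-A libraries, which were read from a single end on an Illumina HiSeq, per the labels' protocols. HTSeq, DESeq2, TopHat and TopHat2 2.0.12 are listed without their roles, as are the builds mm10 and GRCm38, per the submitters' processing notes. The authors deposited unscaled counts of reads for each Ensembl gene. The human build, strand setting, handling of reads with several matches, GSK126 dose, treatment times and hairpin sequences are not given in the sources used here. Of 60674 human genes 60418 were found by ID in GENCODE for GRCh38, and 100.00% of these overlapped the annotated gene. Of 41214 mouse genes 40254 were found for GRCm38, with 99.85% overlapping. Coordinates are those of the files, and exon lengths come from GENCODE.

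Libraries were grouped by their labels, and totals ran from 13693927 to 23217215 counts. The 3 tables were modelled separately, all groups of a table together, with edgeR 4.0.16 (R 4.3.3), filterByExpr, TMM scaling, quasi-likelihood tests and Benjamini-Hochberg adjustment over 12225 mouse, 15999 drug and 15872 knockdown genes. Genes were called at an adjusted p under 0.05. SE is the size of the log2 fold change over the square root of F. Differences between responses are interaction contrasts. Ratios of counts carry exact intervals (95%). One nameless knockdown entry, at 0 counts, was dropped. The scripts were tested on simulated data.

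The named genes were all 10 members in every library, and BAP1, with Nf2 and Cdkn2a in the mouse, as a check of labels. They also held up to 3 called genes of each pathway list with the smallest p, of which some are printed. The 3 most alike genes of each member were named too, of which at most the first is printed. Some named genes are not reported here. The members, lists and tests were chosen with earlier results of these data known. Alternatives were RLE scaling, no filter, a stricter filter (50 counts or more in 2 libraries), limma-voom (limma 3.58.1), DESeq2 1.42.0, a replicate block, fits of the compared groups alone, and fits that omit 1 library.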

Additional observations from a re-analysis of the deposited data

Results flagged for a closer look

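For the following genes the response itself differed between the lines, by the interaction test in edgeR over all genes tested, with 2 libraries in each group. The response to GSK126 was higher in H2731 than in H2810 by a log2 difference of 0.70 for SNAI2, 0.43 for ZEB1, 0.32 for ZEB2, 0.34 for CDH2, 0.42 for CDH11 and 0.54 for VIM. These 6 calls held in all 14 alternatives run for each. H2731 and H2810 also differ in BAP1 label and in the background of the tumour they came from, and these cannot be told apart.

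The response to shBAP1 was lower in MSTO-211H than in H2810 by -1.76 for SNAI1, -1.25 for SNAI2, -1.02 for ZEB2 and -0.53 for CDH2, and higher by 0.56 for ZEB1 and 0.19 for VIM. The first 5 calls held in all 14 alternatives, and that of VIM in 2. Replicates of H2810 differed more than those of MSTO-211H in this table, with a chi-square per degree of freedom of 17.8 and 18.2 against 2.31 and 2.34, and the test shares 1 spread over all groups. Its part in these calls was not tested.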

How the results depend on the processing

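Over the 9 comparisons, 877 log2 fold changes of single genes kept their direction and their side of the threshold under an alternative, 38 lost the call, 4 gained it and 25 turned sign. Each of the 25 was of a gene that was not called. In the mouse the replicate block turned Cdh11 to 0.19, and with each library left out in turn the log2 fold changes of BNC over NC ran from -0.57 to 0.39 for Snai2, -0.68 to 0.09 for Twist1, -0.002 to 0.55 for Zeb2, -0.18 to 1.07 for Cdh2 and -1.58 to 0.82 for Cdh11. In the same way they ran from -0.18 to 0.12 for SNAI1 and -0.02 to 0.10 for CDH2 with GSK126 in H2731, and from -0.03 to 0.06 for the TWIST1 drug difference. With shBAP1 they ran from -0.10 to 0.09 for TWIST2 in H2810 (0.02 with no filter), from -0.14 to 0.05 for TWIST2 and -0.56 to 0.08 for SNAI1 in MSTO-211H, and from -0.21 to 0.06 for TWIST1 and -0.13 to 0.07 for TWIST2 in the difference between lines (TWIST2 0.01 with at least 50 counts in 2 libraries).

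Of the 9 genes, 5 were called with GSK126 in H2810, but DESeq2 called 3, and omitting a library gave 2 to 4, 2 of them without GSK126 replicate 1 and 3 without DMSO replicate 2. DESeq2 called 2783 genes for GSK126 in H2810, against 4681 in edgeR, 2123 against 3959 in H2731, and 1401 against 2358 for the difference. With a library left out, 2338 to 3185 genes were called for GSK126 in H2731, 2338 without GSK126 replicate 2 and 2619 without DMSO replicate 1. In the mouse DESeq2 called 302 genes and the replicate block 1, against 0 in edgeR. The causes were not tested. Same-numbered libraries correlated from -0.0646 to 0.0979 in the human tables, and at 0.336 and -0.306 in the mouse, so shared numbers were treated as names only, and the block changed 3 calls of single genes or counts of calls: VIM with GSK126 in H2731 gained its call (adjusted p = 0.0200), VIM lost it for the hairpin difference (0.0645), and 1 mouse gene was called. Leaving out a library leaves 1 in its group, assumed to vary like the others. Depth limits CDH1 in all tables and CDH11 in MSTO-211H, where the fit of the compared groups alone gave CDH11 no value.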
